A study of Mus musculus with 9 samples.

Results

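The genes described here encode the kinesin and dynein motors, and the measurement is where BAP1 binds near them in Ba/F3, a mouse B cell precursor line that grows in the presence of IL-3. The members were chosen by name, as all protein-coding genes of the GENCODE M1 annotation whose symbol starts with *Kif* and a number, with *Dync* or with *Dnah*, which gave 60 of 22367 protein-coding genes. Binding was mapped by ChIP-Seq, in which fixed and sheared chromatin is recovered with an antibody and sequenced, once with an antibody to BAP1 in wild type Ba/F3 cells and once with an antibody to FLAG in Ba/F3 cells that stably express murine BAP1 with a triple FLAG tag and were kept under puromycin. How much tagged BAP1 these cells make relative to their own BAP1 is not given in the sources used here. Both immunoprecipitations were compared with input DNA and enter a common list of 13164 peaks, each 200 bp wide, with no height, score or p-value, and a peak cannot be traced to either sample. The series also has 3 samples for histone H2AK119ub and 4 input samples, which were not analysed here. Each immunoprecipitation was sequenced once and the depth is unknown, so the values below have no replicate error and no test could be made across samples. Genes are not replicates, and shares of genes are therefore set beside the same share over all protein-coding genes, as a description. Transcript levels were not analysed here, so the identity of the cells could not be checked against marker genes, and expression of a motor gene in Ba/F3 cells cannot be read from its peak.

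Kinesins and dyneins are ATP-driven motors that walk along microtubules. Most kinesins move toward the growing plus end, whereas dynein moves toward the minus end, and together they build the mitotic spindle, separate chromosomes and carry vesicles, organelles and signalling complexes. A further branch of the dynein family, the axonemal dyneins, bends the microtubule doublets of motile cilia and sperm tails, structures not known from lymphoid cells. BAP1 is a deubiquitinase that removes the H2AK119ub mark, a ubiquitin placed on histone H2A by the Polycomb repressive complex PRC1.

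A gene was called bound, with a gene-proximal peak, when the middle of a peak lay within 1 kb of any of its annotated transcription start sites (TSSs). Of the 60 motor genes, 29 were bound (48.3%), where 39.6% of all protein-coding genes were. The classes differed widely around this value. A peak was present at 11 of 13 mitotic kinesins (84.6%), 10 of 13 transport kinesins (76.9%) and 5 of 7 cytoplasmic dynein genes (71.4%), but at 3 of 12 other kinesins (25%) and 0 of 15 axonemal dynein genes. By family, 24 of 38 kinesins (63.2%) and 5 of 22 dynein genes (22.7%) were bound. None of these differences between classes has a test, since the list is a joint product of both samples. The classes follow textbook roles, and *Kif2a*, *Kif2b*, *Kif21a* and *Kif21b* could be placed otherwise.

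**Figure D1:**
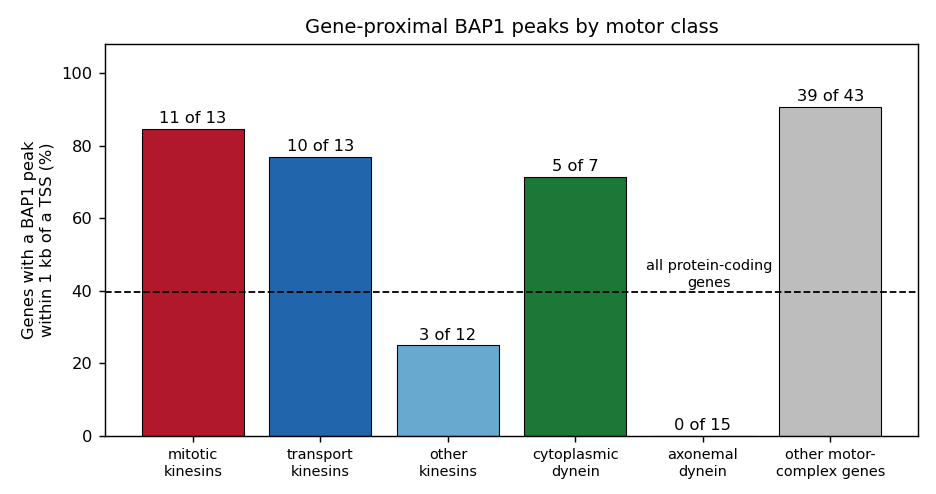
Share of genes with a BAP1 peak within 1 kb of a TSS, in percent, for the 5 classes of motor genes and for the other motor-complex genes, with the number of bound genes above each bar. The dashed line marks the 39.6% of all protein-coding genes, and the mitotic, transport and cytoplasmic dynein classes lie above it while the other kinesins (25%) and the axonemal dyneins (0 of 15) lie below.

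No motor gene changed its call with a 500 bp window, as no nearest peak lay between 347 and 1613 bp, but wider windows added genes. In the 29 bound genes the nearest peak middle lay from 347 bp upstream to 284 bp downstream of a TSS. In the 31 unbound genes the nearest peak was 1613 bp to 774 kb away, with a median of 102 kb, and the unbound protein-coding genes had a median of 83.0 kb. The bound genes closest to the 1 kb limit were *Kif1c* at 347 bp and *Kif9* at 305 bp upstream, and the unbound genes closest to it were *Kif7* at 1613 bp and *Kif14* at 1701 bp upstream. The number of bound motor genes was 29 with a 500 bp window, 31 with a 2 kb window and 32 with a 5 kb window.

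**Figure D2:**
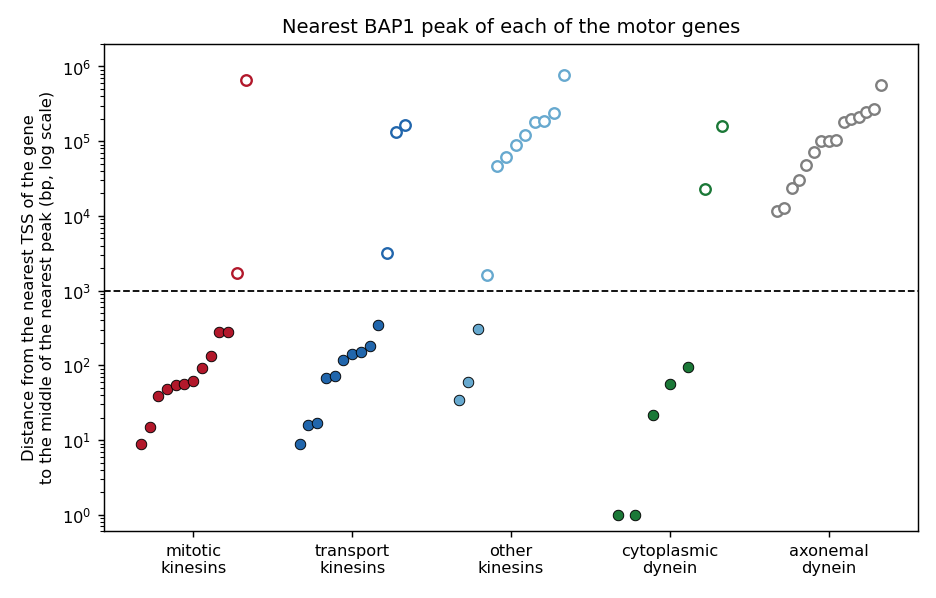
Distance in bp, on a log scale, from the middle of the nearest BAP1 peak to the nearest TSS of each of the 60 motor genes, by class, with genes in order of distance and a distance of 0 drawn at 1. Filled points are genes with a gene-proximal peak and open points those without, the dashed line marks 1 kb, and no gene lies between 347 and 1613 bp.

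Bound mitotic kinesins included motors of spindle assembly, of chromosome movement and of cytokinesis. In spindle assembly, *Kif11*, which cross-links and slides apart the microtubules of opposite poles, had its peak 133 bp upstream of the TSS. *Kif15*, which supports the same step, had it 91 bp upstream. Among the kinesins that act on chromosomes, the peak of *Kif22*, which pushes chromosome arms away from the poles, lay 54 bp upstream. That of *Kif18a*, which dampens chromosome movement at the metaphase plate, lay 62 bp upstream. These 4 genes thus carried their peak just before the TSS. *Kif4*, a motor of chromosome arms and of the spindle midzone, had its peak 284 bp downstream of the nearest GENCODE TSS, in an exon. From the start of *Kif4* in the RefSeq annotation, the peak lies 44 bp upstream. Among the microtubule-depolymerizing motors, *Kif2c*, which releases wrong attachments at kinetochores, had a peak 9 bp downstream, *Kif18b* 39 bp upstream and *Kif2a*, which acts at spindle poles, 279 bp upstream. With RefSeq starts the nearest peak lies 50 bp upstream for *Kif2a* and 3858 bp upstream for *Kif2c*. Among the motors of cytokinesis, *Kif23*, the motor of the centralspindlin complex, had a peak 49 bp upstream and *Kif20b* 56 bp upstream. *Kif20a*, which brings the chromosomal passenger complex to the midzone, had peaks 15 and 38 bp upstream, each measured from its nearest TSS. Across the class, 9 of the 11 nearest peaks lay upstream and 8 lay within 100 bp of a GENCODE TSS.

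The 2 mitotic kinesins without a gene-proximal peak differed in how far the next peak was. *Kif14*, which acts in cytokinesis, had a peak 1701 bp upstream of its TSS at chr1:138362734-138362933, within 1 kb of no annotated TSS. This peak has a G and C content of 66.5% and 17 CpG sites, close to the medians of all peaks (65.0% and 17 sites), whereas the annotated start of *Kif14* is CpG-poor, with an observed over expected CpG ratio of 0.38. With a 2 kb window *Kif14* would count as bound and the class would reach 12 of 13. *Kif2b*, a depolymerase with a role at kinetochores, had its nearest peak 662 kb away.

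The peaks of the 3 mitotic kinesins whose peak middle is nearest to a TSS, *Kif2c*, *Kif18b* and *Kif23*, are shown as the sequence of the bound promoter, limited to the part of the 200 bp that lies outside annotated exons. *Kif20a* is closer than *Kif18b* and was left out. Sequences are from mm9, read 5′ to 3′ on the strand of the gene, here the minus strand in all 3, and capitals mark matches to the motifs searched, which are spelled out further on.
Kif2c, chr4:116855245-116855334: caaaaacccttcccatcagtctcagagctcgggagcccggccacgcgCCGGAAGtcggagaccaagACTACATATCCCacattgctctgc
Kif18b, chr11:102786439-102786576: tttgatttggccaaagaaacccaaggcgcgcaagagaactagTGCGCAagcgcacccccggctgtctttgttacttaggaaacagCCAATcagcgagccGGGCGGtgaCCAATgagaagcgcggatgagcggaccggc
Kif23, chr9:61794607-61794754: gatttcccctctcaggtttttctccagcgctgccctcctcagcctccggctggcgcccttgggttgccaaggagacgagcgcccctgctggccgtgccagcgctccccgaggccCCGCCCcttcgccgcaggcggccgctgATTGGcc
In these stretches *Kif2c* has 6 CpG sites in 90 bases, *Kif18b* 12 in 138 and *Kif23* 13 in 148. *Kif18b* holds 2 NF-Y boxes (CCAAT), while *Kif23* holds 1, on the opposite strand.

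The cell cycle homology region (CHR) is a short promoter element known from genes expressed in the later cell cycle, through which the DREAM and MuvB complexes act. Its core letters TTTGAA, on either strand, were present in the nearest peak of 7 of the 11 bound mitotic kinesins (63.6%), where 5.80% of all peaks and 4.47% of the 9805 peaks within 1 kb of a protein-coding TSS hold them. They were present in 0 of the 18 nearest peaks of the other bound motor genes. These shares are not matched for G and C content, and its part was not tested. The median G and C content was 61.0% in the mitotic kinesin peaks, 65.0% in all peaks and 67.5% in those near a protein-coding TSS. The genes with a match were *Kif4*, *Kif11*, *Kif15*, *Kif18b*, *Kif20b*, *Kif22* and *Kif23*, and those without were *Kif2a*, *Kif2c*, *Kif18a* and *Kif20a*. The 7 elements are shown with 12 bases of mm9 sequence on either side, on the strand of the gene, with the core in capitals. They were selected for display after the counts were known.
Kif4, chrX:97821411-97821440: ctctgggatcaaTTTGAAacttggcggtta
Kif11, chr19:37450841-37450870: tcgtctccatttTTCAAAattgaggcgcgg
Kif15, chr9:122860168-122860197: tggggcgccaaaTTCAAAtctgcggccatc
Kif18b, chr11:102786418-102786447: cggaccggctagTTTGAAcgcgccgcgccg
Kif20b, chr19:34996843-34996872: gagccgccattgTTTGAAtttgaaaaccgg
Kif22, chr7:134185934-134185963: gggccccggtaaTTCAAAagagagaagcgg
Kif23, chr9:61794587-61794616: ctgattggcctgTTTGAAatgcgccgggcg
In *Kif11*, *Kif15* and *Kif22* the core reads TTCAAA on the strand of the gene, which is the same element on the opposite strand, and in *Kif20b* a second copy follows directly. The centre of the element lay between 38 bp upstream and 15 bp downstream of the TSS in 6 of the 7 genes. In *Kif4* it lay 349 bp downstream of the nearest GENCODE TSS and 21 bp downstream of the RefSeq start of the gene. The same letters were also counted over 100 bp on either side of a TSS per gene, in bound and unbound genes together. They were present in 7 of 13 mitotic kinesins, 2 of 15 axonemal dyneins and 1 of 12 other kinesins. The count was 0 of 13 in transport kinesins and 0 of 7 in cytoplasmic dynein genes, beside 8.05% of all protein-coding genes. Of these classes only the axonemal dyneins are wholly unbound, so their 2 matches are at starts without a peak. A match is a description of the sequence and no evidence that a factor is bound there.

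**Figure D3:**
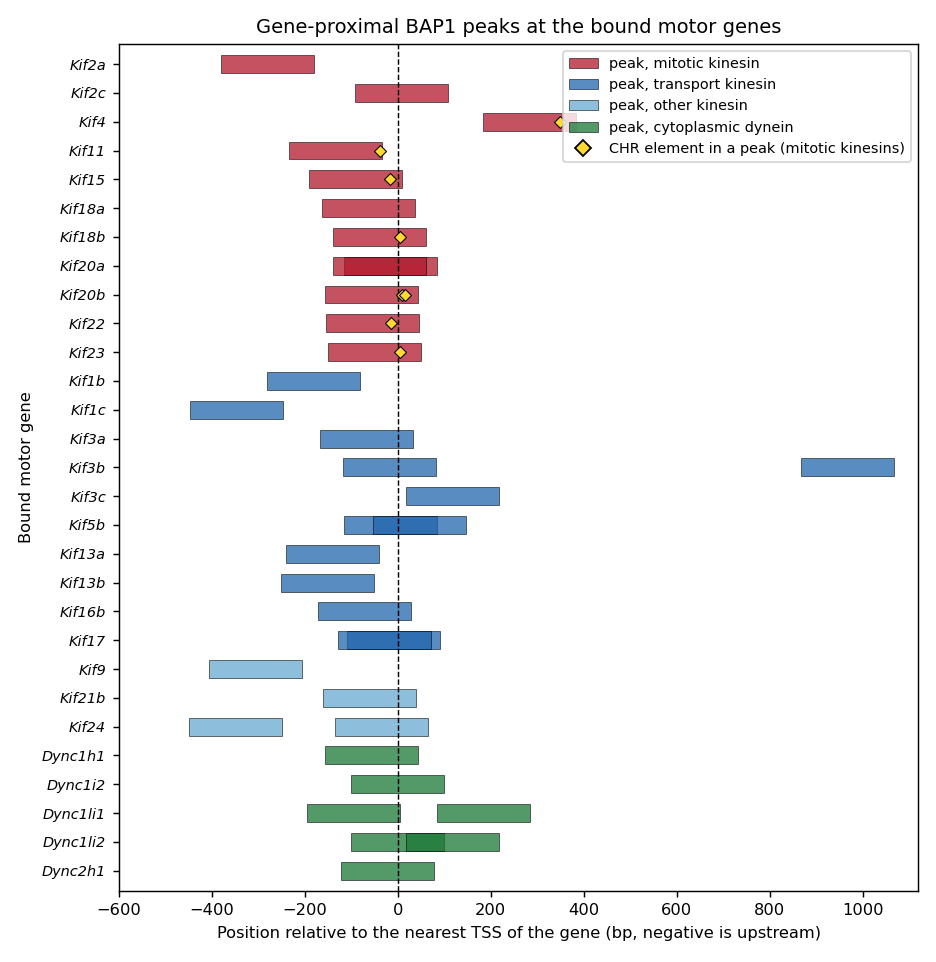
Position in bp of each gene-proximal BAP1 peak, drawn as a 200 bp bar, relative to the nearest TSS of the 29 bound motor genes, colored by class, with diamonds for CHR elements in the nearest peaks of mitotic kinesins. Positions are from GENCODE TSSs. Most bars cover or directly precede the TSS, and *Kif3b* has a second peak 968 bp downstream. *Kif4* stands apart downstream, although its peak lies 44 bp upstream of its RefSeq start.

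The transport kinesins carry cargo outside mitosis, and the 3 of them without a peak, *Kif1a*, *Kif5a* and *Kif5c*, are all known mainly from neurons. Kinesin heavy chains of the conventional type are encoded by *Kif5a*, *Kif5b* and *Kif5c*. *Kif5b*, the widely expressed heavy chain, had peaks 16 bp upstream and 47 bp downstream of a TSS. *Kif5c*, a neuronal form, had its nearest peak 166 kb upstream. *Kif5a*, also neuronal, had a peak 3223 bp upstream, which lies within 1 kb of the TSS of *Dctn2*, a dynactin subunit. The split was similar for the *Kif1* genes. *Kif1b*, which carries mitochondria and vesicles, had a peak 180 bp upstream and *Kif1c*, a vesicle motor, 347 bp upstream, whereas the nearest peak of *Kif1a*, the motor of synaptic vesicle precursors, was 134 kb away, near *Capn10*. *Kif3c* and *Kif17*, also best known from neurons, were bound. The peak of *Kif3c* lay 118 bp downstream in an exon. *Kif17*, a dendritic and ciliary motor, had peaks 9 and 29 bp upstream of different TSSs, the first of them at an internal start and wholly within annotated exons.

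The remaining transport kinesins were all bound. *Kif3a* and *Kif3b*, which form the heterotrimeric motor that carries cargo into cilia and along axons, had peaks 67 and 17 bp upstream. The endosomal motors *Kif13a*, *Kif13b* and *Kif16b* had theirs 141, 151 and 71 bp upstream. The nearest peaks of the 10 bound transport kinesins had a median position of -69 bp, where a negative value is upstream, and those of the 11 mitotic kinesins -54 bp. The transport kinesin peaks were rich in G and C, with a median of 71.3% against 61.0% in the mitotic kinesins, 65.0% in all peaks and 67.5% in the peaks near a protein-coding TSS. The bound promoter of *Kif3b*, whose peak is among the closest to a TSS in this class, is shown on its plus strand, again outside exons and with motif matches in capitals.
Kif3b, chr2:153117032-153117148: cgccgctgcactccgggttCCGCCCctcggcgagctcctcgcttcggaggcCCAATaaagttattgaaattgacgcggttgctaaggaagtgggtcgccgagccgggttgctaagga
It holds 13 CpG sites, 1 NF-Y box and 1 Sp box (GGGCGG, here read from the opposite strand as CCGCCC). The Sp box was present in the nearest peak of 10 of 10 bound transport kinesins and 7 of 11 mitotic kinesins, where 59.5% of all peaks and 69.1% of those near a protein-coding TSS hold it.

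The other kinesins, which act in cilia, in signalling or on microtubule growth, were bound in 3 of 12 cases. *Kif24*, a centriolar motor that holds back the growth of cilia, had peaks 34 and 348 bp upstream. *Kif21b*, which restrains microtubule growth, had a peak 60 bp upstream and a further pair inside the gene, in introns, 3788 and 9040 bp downstream of a TSS. *Kif9*, a motor of motile cilia and sperm tails, had a peak 305 bp upstream, which lies 36 bp from the TSS of its neighbor *Klhl18*. These 3 genes were the exceptions in a class whose members mostly had distant peaks. *Kif21a*, the closest relative of *Kif21b*, had its nearest peak 774 kb away, the largest distance among the motor genes. The nearest peak was 123 kb away for *Kif26b* and 179 kb for *Kif26a*, a pair of kinesins that act in signalling rather than movement. It was 46.8 kb away for *Kif27* and 90.0 kb for *Kif19a*, both linked to cilia, 186 kb for *Kif6* and 239 kb for *Kif12*. *Kif4-ps*, which the annotation lists as protein-coding although its name marks a pseudogene, had its nearest peak 61.9 kb away. *Kif7*, a ciliary regulator of Hedgehog signalling, was unbound by the annotation used, with a peak 1613 bp upstream. From the RefSeq start of *Kif7* the same peak lies 92 bp upstream, so that this gene counts as bound with RefSeq starts, and the CpG ratio is 0.65 at that start against 0.21 at the GENCODE TSS.

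Cytoplasmic dynein is assembled from heavy, intermediate, light intermediate and light chains. The heavy chain gene of the main form, *Dync1h1*, had a peak 57 bp upstream. Of the intermediate chain genes, the widely expressed *Dync1i2* had a peak centered on a TSS, at 0 bp, and the neuronal *Dync1i1* had its nearest peak 22.6 kb away. Both light intermediate chain genes carried a pair of peaks, 96 bp upstream and 185 bp downstream in *Dync1li1*, and 1 bp upstream and 118 bp downstream in *Dync1li2*. Thus 4 of 5 genes of this form were bound. Of the form that works inside cilia, the heavy chain gene *Dync2h1* had a peak 22 bp upstream, and the light intermediate chain gene *Dync2li1* had its nearest peak 160 kb away, near *Thada*. With RefSeq starts *Dync2h1* was no longer bound, as its RefSeq start lies 7410 bp from the peak, and the class then had 4 of 7 bound genes. *Kif2c* was likewise unbound with RefSeq starts, at 3858 bp. The bound promoters of the cytoplasmic dynein genes with the most centered peaks are shown outside exons, *Dync1i2* on the plus and *Dync1li2* on the minus strand.
Dync1i2, chr2:71049663-71049762: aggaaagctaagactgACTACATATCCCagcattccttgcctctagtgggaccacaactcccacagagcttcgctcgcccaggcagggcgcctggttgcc
Dync1li2, chr8:106966948-106967047: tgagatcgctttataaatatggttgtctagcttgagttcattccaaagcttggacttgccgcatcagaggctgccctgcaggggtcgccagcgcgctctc
These stretches have 3 and 5 CpG sites in 100 bases. The capitals in *Dync1i2*, like the second run of capitals in *Kif2c* above, match ACTACA followed after a gap of 2 bases by TCCC, the core of the SBS element recognized by the zinc finger factor ZFP143. This motif was searched only after the sequences had been seen. Its letters were present in the nearest peaks of 4 of the 29 bound motor genes, *Dync1h1*, *Dync1i2*, *Kif13b* and *Kif2c*, and in 2.76% of all peaks.

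The axonemal dynein heavy chain genes, listed in the annotation under their older symbols *Dnahc1* to *Dnahc17*, had no gene-proximal peak in 15 of 15 cases. The count was also 0 with windows of 2 kb and 5 kb, which follows from the distances given below. A 500 bp window, a TSS per gene and coding transcripts could not have raised this count. It also stayed at 0 with RefSeq starts, although *Dnahc3*, *Dnahc7c* and *Dnahc8* had no matched RefSeq start and kept their GENCODE TSSs. Their nearest peaks were 11.7 to 564 kb away, with a median of 102 kb. The closest were those of *Dnahc8*, 11692 bp upstream at the TSS of *Glo1*, and *Dnahc1*, 12723 bp upstream at the TSS of *Capn7*. Next came *Dnahc12* at 23.4 kb, near *Pde12*, and *Dnahc2* at 30.4 kb, near *Trp53* and *Wrap53*. The farthest was *Dnahc5* at 564 kb. In all, 5 of the 15 had a peak within 50 kb, where 38.5% of all unbound protein-coding genes do. These genes are long, with a median of 172 kb against 15.4 kb for all protein-coding genes. A peak inside the gene was found in 1 of the 15, *Dnahc8*, in an intron 131 kb downstream of a TSS. Among the unbound protein-coding genes 4.25% have a peak inside, a share not matched for gene length. The genes *Dnahc7a*, *Dnahc7b* and *Dnahc7c* are close copies of each other, and reads that map to several copies could be lost there. The annotated *Dnahc7a* and *Dnahc7c* are short, at 18.5 and 17.2 kb, whereas *Dnahc7b* spans 307 kb. From the RefSeq start of *Dnahc7a* the nearest peak is 78232 bp away, and the CpG ratio is 0.61 there against 0.15 at the GENCODE TSS.

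For comparison with the bound promoters, the 150 bases before the TSS are shown for the axonemal genes whose nearest peak is the least distant, *Dnahc8* on the plus strand and *Dnahc1* on the minus strand.
Dnahc8, chr17:30761149-30761298: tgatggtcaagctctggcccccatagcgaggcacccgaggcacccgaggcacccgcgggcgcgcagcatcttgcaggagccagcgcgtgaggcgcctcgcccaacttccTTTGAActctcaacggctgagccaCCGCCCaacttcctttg
Dnahc1, chr14:32137083-32137232: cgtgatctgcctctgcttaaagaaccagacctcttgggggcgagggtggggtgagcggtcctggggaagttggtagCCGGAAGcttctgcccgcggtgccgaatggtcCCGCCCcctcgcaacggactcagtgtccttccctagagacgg
They have 13 and 11 CpG sites and hold motifs that also occur under peaks, a CHR core and an Sp box in *Dnahc8*, and an Ets site (CCGGAAG) and an Sp box in *Dnahc1*.

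The CpG content of the promoter differed between bound and unbound motor genes, with a median ratio of 0.80 in the bound and 0.41 in the unbound ones. The ratio of observed to expected CpG was computed from 500 bp before to 500 bp after the TSS of the longest transcript. It had a median of 0.76 in mitotic kinesins, 0.73 in transport kinesins, 0.68 in other kinesins, 0.79 in cytoplasmic dynein genes and 0.36 in axonemal dynein genes, and of 0.56 in all protein-coding genes. Of the 37 motor genes with a ratio of at least 0.6, 28 were bound (75.7%), beside 70.2% of all protein-coding genes with such a promoter. Of the 23 motor genes below 0.6, *Kif3c* alone was bound (4.35%), at a ratio of 0.58, beside 13.1% of all protein-coding genes of that kind. The share of CpG-rich motor genes thus lies near that of all CpG-rich genes. In the mitotic kinesins 11 of 11 genes with a CpG-rich promoter were bound and 0 of 2 with a CpG-poor one, and in the cytoplasmic dynein genes 5 of 5 and 0 of 2. In the transport kinesins 9 of 12 and 1 of 1 were bound. The other kinesins had fewer, with 3 of 7 CpG-rich promoters bound (42.9%) and 0 of 5 CpG-poor ones, although their median ratio was above that of all genes. In the axonemal dynein genes 13 of 15 promoters were CpG-poor, and 0 of the 2 CpG-rich ones were bound. These counts use GENCODE TSSs. At the RefSeq starts of *Kif2c* and *Dync2h1*, from which both are unbound, the ratio was 0.22 against 0.65 and 0.60 against 0.82. The classes also hold CpG-rich promoters without a peak, 9 in all. These were *Kif1a* (0.62), *Kif5a* (0.63) and *Kif5c* (0.72) among transport kinesins, *Kif6* (0.64), *Kif21a* (0.88), *Kif26a* (0.72) and *Kif26b* (0.88) among other kinesins, and *Dnahc9* (0.70) and *Dnahc11* (0.61) among axonemal dyneins. The part of CpG content in the differences between the classes was not tested.

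**Figure D4:**
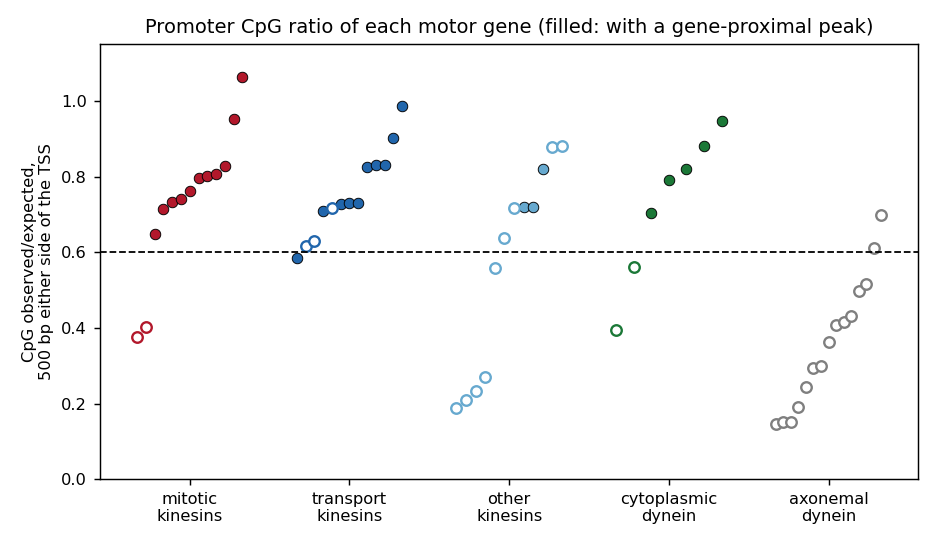
Ratio of observed to expected CpG within 500 bp of the TSS, a number without unit, for each of the 60 motor genes by class, with genes in order of the ratio. Filled points are genes with a gene-proximal peak and open points those without, the dashed line marks 0.6, and below it *Kif3c* is the filled point while 13 of 15 axonemal genes lie below it unfilled.

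The position of the peaks was close to that at other bound genes. Over the 29 bound motor genes the nearest peak had a median position of -56 bp, with quartiles of -96 and -16 bp, where all bound protein-coding genes had -32 bp, with quartiles of -73 and -1 bp. It lay upstream in 25 of 29 (86.2%), beside 75.1% of bound protein-coding genes, and within 100 bp of a TSS in 20 of 29 (69.0%), beside 77.8%. A second gene-proximal peak was present at 7 of the 60 motor genes, *Kif3b*, *Kif5b*, *Kif17*, *Kif20a*, *Kif24*, *Dync1li1* and *Dync1li2*, beside 10.1% of all protein-coding genes. A further peak elsewhere inside the gene was found for 3 of 60, the pair in *Kif21b*, the intronic peak of *Dnahc8* and a peak in an intron of *Kif11*, 31290 bp downstream of its TSS, beside 5.10% of all protein-coding genes.

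A peak cannot be assigned to a motor gene alone where another gene starts nearby. For 9 of the 29 bound motor genes (31.0%) a gene-proximal peak also lay within 1 kb of another protein-coding gene, beside 25.8% of bound protein-coding genes, and in 8 of these the neighbor was on the opposite strand. In 5 of them, by GENCODE TSSs, the peak nearest to the motor gene was closer to the neighbor. These were *Kif4*, whose peak lay 83 bp from the TSS of *Pdzd11*, *Kif15*, at 10 bp from *1110059G10Rik*, *Kif18a*, at 26 bp from *Mettl15*, *Kif9*, at 36 bp from *Klhl18*, and *Kif1c*, at 46 bp from *Inca1*. From the RefSeq start of *Kif4*, however, its peak lies 44 bp upstream. *Kif20a* and *Kif24* each had a pair of peaks, of which the nearest to the neighbor lay 15 bp from *Brd8* and 84 bp from *Nudt2*. The peak of *Dync2h1* was 98 bp from *Dcun1d5* and 22 bp from *Dync2h1* itself. *Kif17* shared the second of its peaks with *Sh2d5*, which starts 3 bp from it on the same strand. *Kif3a* and *Kif21b* shared their peaks with the noncoding genes *A430108G06Rik* and *Gm15850*.

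Of the 9 motifs searched on both strands of the nearest peaks, several were more frequent in the mitotic kinesins than in all peaks besides the CHR element, although each share rests on 11 peaks. The NF-Y box (CCAAT) was present in 6 of 11, beside 28.5% of all peaks and 30.0% of those near a protein-coding TSS. The Ets site was also present in 6 of 11, beside 16.8% and 20.5%. In the 18 peaks of the other bound motor genes the same motifs were present in 33.3% and 16.7%. The Creb site (TGACGT) was found in 3 of 11 mitotic kinesin peaks, the Nrf1 core (TGCGCA) in 2, the YY1 site (AAGATGG) in 1 and the E2F site (TTCCCGC) in 0, where all peaks have 9.28%, 13.2%, 5.58% and 6.01%. The absence of these E2F letters from a window says nothing on the binding of E2F factors.

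**Figure D5:**
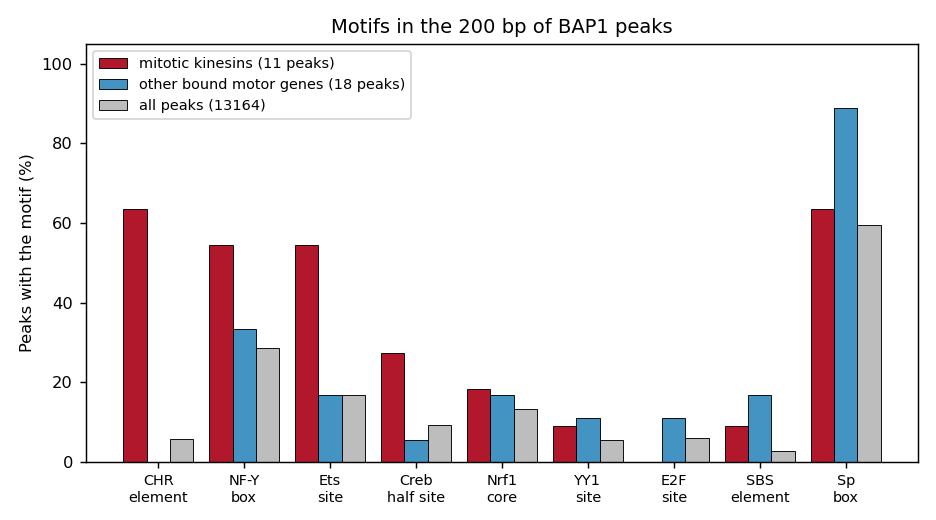
Share in percent of peaks that hold each of 9 motifs on either strand, for the nearest peaks of 11 mitotic kinesins, of the 18 other bound motor genes and for all 13164 peaks. The CHR element is present in 63.6% of the mitotic kinesin peaks, 0 of 18 others and 5.80% of all peaks.

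Most of the genes that work with these motors were bound. From a list of 43 further motor-complex genes, picked by hand with earlier results of these data known, 39 had a gene-proximal peak (90.7%), beside 39.6% of all protein-coding genes and 70.2% of those with a CpG-rich promoter. The count was 36 when a TSS per gene was used. All 9 dynactin genes were bound, the complex that couples cytoplasmic dynein to its cargo, among them *Dctn1* with a peak 5 bp upstream. Of the 10 genes for kinesin light chains, the kinesin 2 adaptor and kinesins outside the naming rule, 9 were bound, including *Cenpe*, the kinetochore kinesin, with a peak 21 bp upstream. The exception was the light chain gene *Klc4*, with a peak 1069 bp upstream, just beyond the limit. *Kifc1* and *Kifc5b* are near-identical copies and each had a peak 236 bp upstream, so reads of these genes could be exchanged. Of the 9 dynein light chain genes 8 were bound, and *Dynlrb2*, known from ciliated tissue, had its nearest peak 417 kb away, whereas its widely expressed relative *Dynlrb1* had a peak 16 bp downstream. The 4 *Dynlt1* genes in this list are likewise close copies. Of the 8 regulators and adaptors, 7 were bound, *Pafah1b1*, *Nde1* and *Ndel1* among them, and *Hook1* was not. Both intermediate chain genes of the ciliary form, *Wdr34* and *Wdr60*, had a peak.

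The axonemal intermediate and light chain genes differed from the axonemal heavy chains, with 4 of 5 bound. *Dnalc1* and *Dnalc4* had peaks 2 and 27 bp downstream of a TSS. *Dnaic1* had a peak 56 bp upstream, shared with *2310028H24Rik*. *Dnaic2* had its nearest peak 52.0 kb away. Transcription of these genes in Ba/F3 cells was not analysed here.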

How the data were processed

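Per the labels, the authors aligned reads to mouse build mm9 using Bowtie 1.0.0, and MACS 1.4.2 gave the peaks, with input DNA as control. The deposited list has 4 columns (chromosome, start, end and name), and its values are positions in bp with no other unit. The peak threshold and the rule that joined both samples are not given in the sources used here, and the depth is unknown. The number of per-sample columns not matched to a sample was 0.

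Peaks were compared with GENCODE M1 (NCBIM37, the same build). The 13 mitochondrial genes were left out of 22380 protein-coding genes. RefSeq starts came from RefSeq promoter sequences (GRCm38.p6) matched exactly and only once to mm9 near the gene, for 48 of 60 members and 16531 protein-coding genes. Functions for distances, CpG ratio and motifs were checked on simulated data. Python 3.11.15, numpy 2.4.6 and pandas 2.3.3 were used.

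The members, classes, motifs and the list of other motor-complex genes were chosen with earlier results of these data known, and the SBS element, the RefSeq starts and the display of CHR elements after seeing the data. All 60 members may be named. Sequences were printed for the bound genes with the most centered peaks in each class, outside chromosome 18, with 2 axonemal genes. *Kif17* has none because its nearest peak lies wholly in exons.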

Additional observations from a re-analysis of the deposited data

How the results depend on the processing

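The counts of bound genes were recomputed with windows of 500 bp, 2 kb and 5 kb, with the nearest peak edge instead of the middle, with a TSS per gene, with coding transcripts, with other places for *Kif2a*, *Kif2b*, *Kif21a* and *Kif21b*, and with RefSeq starts, which were added after seeing the data. In 61 of 61 recomputed values the count stayed within 1.5 times that reported, or the median position within its quartiles. Some of these counts could not have left that range. This holds for mitotic kinesins without *Kif2a* and *Kif2b*, and for transport kinesins with *Kif21a* and *Kif21b*. Windows of 2 kb and 5 kb and the nearest peak edge can only add genes. For mitotic and transport kinesins, cytoplasmic dynein genes and other motor-complex genes, 1.5 times the count exceeds the class size. These settings could thus not move them out of range. The axonemal count, already the lowest possible, could not change with a 500 bp window, a TSS per gene or coding transcripts. Such values say nothing on how stable the counts are. The members that changed were *Kif14* and *Kif7*, gained with the 2 kb and 5 kb windows, *Kif5a*, gained with 5 kb, and, with RefSeq starts, *Kif7*, gained, and *Kif2c* and *Dync2h1*, lost. Mitotic kinesins ranged from 10 to 12 bound genes, transport kinesins from 10 to 11, other kinesins from 2 to 4 and cytoplasmic dynein genes from 4 to 5. A stricter peak threshold could not be applied, as the list has no score, and neither sample could be left out of a joint list. No paired analysis was possible because the list does not separate the samples.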
